A study of Mus musculus with 16 samples.

Results

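Serpins are a large family of proteins, most of which trap and inactivate proteases, and 62 serpin genes were followed across 3 populations of mouse thymic epithelial cells. The 62 are all rows of a count table of 23420 genes whose symbol is Serpin, then a clade letter from a to i, a number and an optional last letter. They comprise 24 genes of clade A, 27 of clade B, 3 of clade E, 2 each of clades F and I, and 1 each of clades C, D, G and H. One of them, Serpina3h, is annotated as a transcribed pseudogene in RefSeq.

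The RNA-seq libraries came from cortical thymic epithelial cells (cTEC) and from medullary cells low or high in MHC class II (mTEClo and mTEChi), sorted from the thymus as CD45-negative, EpCAM-positive cells by the markers Ly51 (cortical) and UEA1 (medullary). The sorting text names no stain for MHC class II, which is given in the sample labels alone. Each population was taken from psmb11 +/+ mice (WT) and psmb11 -/- mice (KO). Psmb11 is a subunit of the thymoproteasome. There were 2 cTEC libraries and 3 libraries of each medullary population per genotype, 16 in all. Every sample carries the strain label C57BL/6-derived BAC and an age of 6 to 8 weeks, whereas the extraction text speaks of 7-day-old C57BL/6 mice. The numbers of animals also differ, with 11 thymi in one place and 14 mice in another, so the animals behind each library are not given. All p-values therefore rest on the spread among libraries, part of which may be technical.

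In an inhibitory serpin, the target protease cuts an exposed loop of the inhibitor and is then carried to the far end of the molecule and locked there in a distorted, inactive form. Clade A members are mostly secreted proteins best known from liver and plasma, such as antitrypsin, antichymotrypsin and the carriers of thyroid hormone and cortisol. Clade B members mostly stay inside the cell and limit damage by granzymes, cathepsins and neutrophil proteases, while the smaller clades hold regulators of clotting, fibrinolysis and complement together with Serpinh1, a chaperone for collagen that inhibits nothing. In the thymus, cortical epithelium presents self-peptides made with the thymoproteasome and cathepsin L, and mature medullary cells express many genes otherwise restricted to other tissues, in part through Aire.

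Library totals ran from 64753610 to 146707262 counts. The deleted gene was counted 15214 and 12756 times in WT cTEC and 157 and 0 times in KO cTEC. KO and WT mTEClo held 177, 111 and 115 counts against 707, 1220 and 778, and KO and WT mTEChi 74, 87 and 172 against 889, 1672 and 598. With edgeR the KO against WT difference of Psmb11 had an adjusted p of 0.0855 in cTEC, 5.44e-04 in mTEClo and 2.43e-07 in mTEChi, and all KO libraries lay below all WT libraries of their population. The population labels matched most of their markers. In WT cTEC 10 of 10 cortical markers were higher than in WT mTEClo, and in WT mTEChi 5 of 5 MHC class II genes were. Against WT mTEChi, 7 of 10 cortical markers were higher in WT cTEC and 2 lower. Of 10 medullary markers tested, 7 were lower and 1 higher in WT cTEC than in WT mTEClo. Against WT mTEChi, 8 were lower and 2 higher. Between WT mTEChi and mTEClo, 6 cortical markers were higher and 2 lower, and 8 medullary markers were higher and 2 lower. One medullary marker of the list, Ccl21a, was at 0 in all 16 libraries. The pair of KO cTEC libraries stood apart, with a correlation of 0.908 between them on the log2 scale against at least 0.97 in every other group, and results that rest on them are given with each library's value. Levels below are CPM, counts scaled to a common library total. Comparisons used edgeR's quasi-likelihood test on the groups compared, and p-values were adjusted by the Benjamini-Hochberg method across every gene in the fit. The words "rose", "fell", "higher" and "lower" are used of members only past an adjusted p of 0.05. The test kept genes with enough counts in at least 1 group, so a scarce member entered mainly where 1 population expressed it, and counts of members past the threshold are descriptions of the family.

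Every population expressed serpins, but not the same ones. The summed level of the family was 1719 to 1865 CPM in WT cTEC, 2070 to 2170 in KO cTEC, 2295 to 2590 across the mTEClo libraries and 2410 to 2766 across the mTEChi libraries. Per length, in the deposited RPKM, WT cTEC was led by Serpinh1 (125 ± 16.7 RPKM, SD, n = 2), Serpinb6a (92.5 ± 9.66) and Serpinb11 (43.3 ± 17.2). In WT mTEClo the order was Serpinb1a (151 ± 5.13 RPKM, SD, n = 3), Serpinh1 (131 ± 8.56) and Serpinb6a (107 ± 0.808), and in WT mTEChi it was Serpinb1a (218 ± 8.96), Serpinb2 (113 ± 11.4) and Serpinb6a (90.2 ± 4.02). Serpinb1a is an inhibitor of neutrophil elastase and cathepsin G, and Serpinb6a an intracellular inhibitor of cathepsin G and trypsin-like proteases. Within WT cTEC the gap between Serpinb11 and the next member, Serpina3g (41.97 ± 2.93 RPKM), was smaller than their SDs, and so was that between Serpina3i and Serpina3n (35.8 ± 5.24 and 35.6 ± 11.8).

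The breadth of the family differed more than its sum. A mean of at least 1 CPM was reached by 29 members in WT cTEC, 33 in WT mTEClo and 49 in WT mTEChi, and by 33, 32 and 49 in the corresponding KO groups. No count at all was seen for 18 members in WT cTEC and 15 in KO cTEC, for 2 and 3 in WT and KO mTEClo, and for 0 in mTEChi of either genotype. By library, 22 and 21 members had no count in WT cTEC, 6 to 9 in WT mTEClo and 0 to 1 in WT mTEChi. Of all 23420 genes, 6108 and 6938 had no count in WT cTEC, 4625 to 5119 in WT mTEClo and 2516 to 2703 in WT mTEChi. The populations thus had the same order over the whole table. A count of 0 over the WT cTEC libraries allows up to 3 counts, or 0.0166 CPM. Of the 51 members at or above 1 CPM in some group, 35 had their highest WT mean in mTEChi, 8 in cTEC and 8 in mTEClo. The same population was highest in KO for 46 of these 51. The exceptions were Serpina3m, Serpina5, Serpinb5, Serpinb8 and Serpinb9e. The heat map of the members shows this as a block of dark cells in the cTEC columns and few dark cells in mTEChi.

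**Figure D1:**
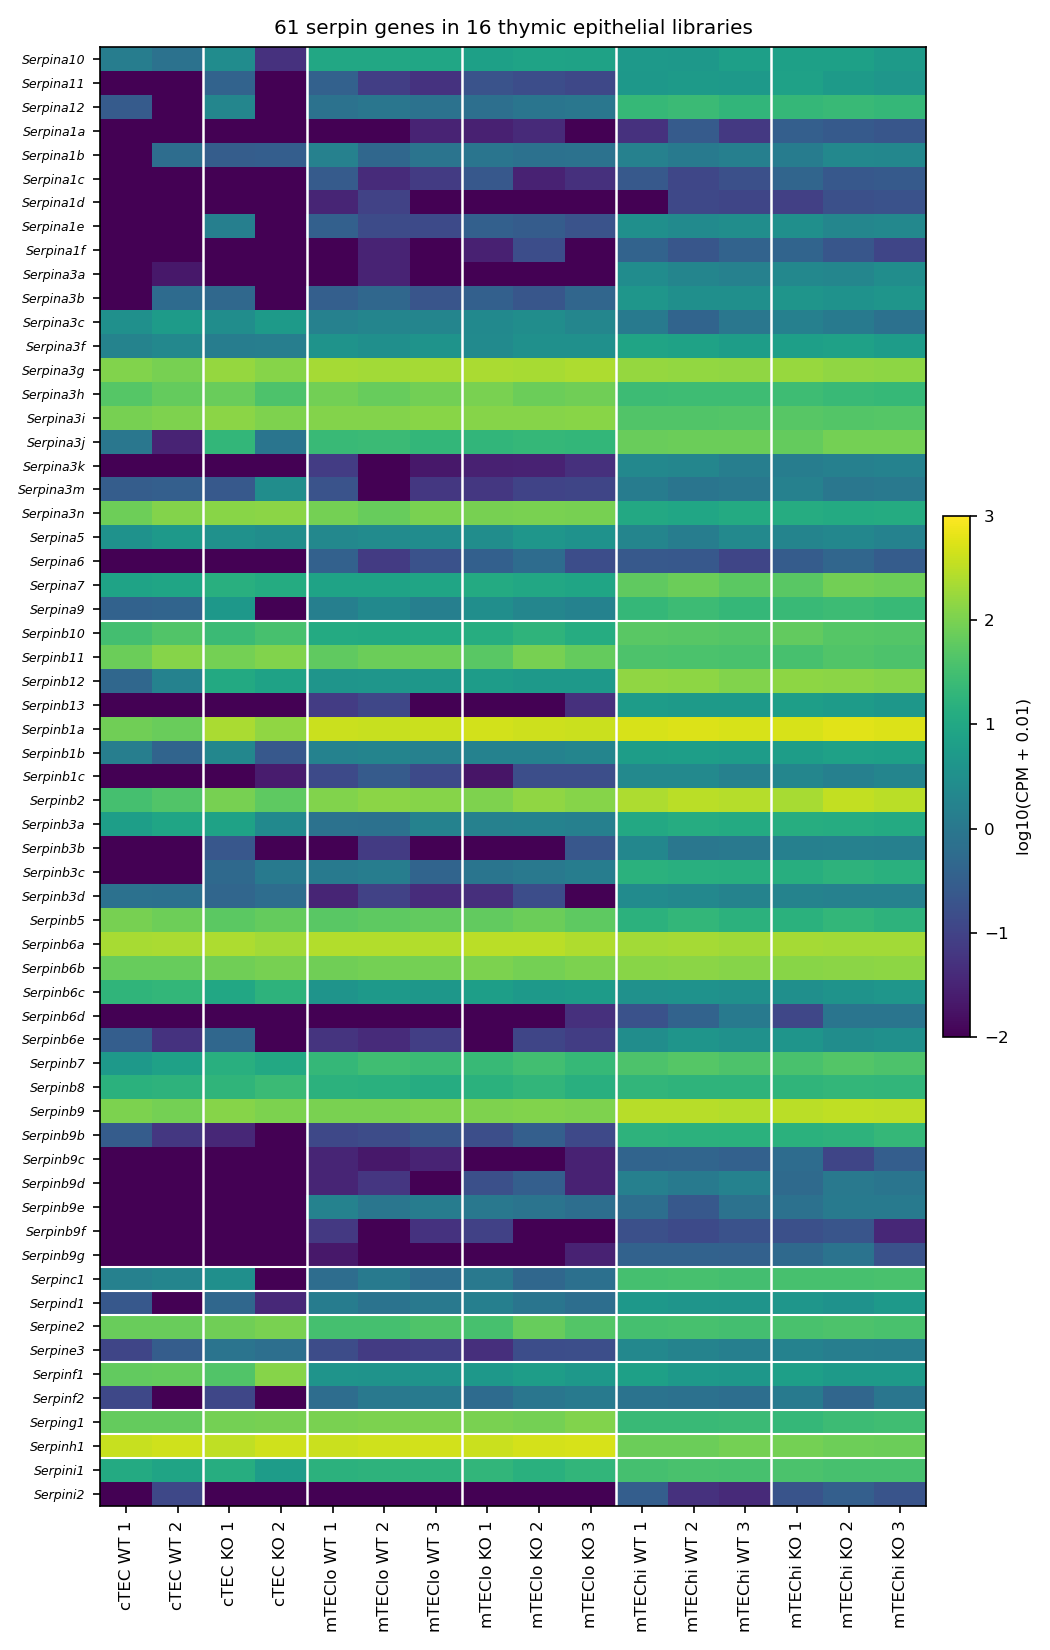
Level of 61 serpin genes (rows, by clade, white lines between clades) in each of the 16 libraries (columns, white lines between groups), as log10(CPM + 0.01). Dark cells mark members near 0: 18 members had no count in WT cTEC, against 0 in WT mTEChi. Of all 23420 genes, 6108 and 6938 had no count in the WT cTEC libraries and 2516 to 2703 in WT mTEChi.

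The medullary populations differed in most serpin genes, as they did in most genes tested. In WT, 59 members were tested between mTEChi and mTEClo. Of these 40 (67.8%) were higher in mTEChi, beside 43% of all 19256 genes tested, and 12 (20.3%) were lower, beside 37.9% of all genes. The median log2 fold change of the members was 1.66, and that of all genes was 0.056. In clade B, 22 of 27 tested members were higher and 4 lower. In clade A, 12 of 22 were higher and 6 lower. In clades C to I, 6 of 10 were higher and 2 lower. Of the 45 members whose mean over these 6 libraries was at least 1 CPM, 30 were higher, 11 lower and 4 not called. These are bulk samples, in which fewer cells of a type and less RNA per cell cannot be told apart.

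Several clade B members known from squamous epithelium rose in mTEChi by a large factor. Serpinb12, an inhibitor of trypsin-like proteases, was at 0.448 and 1.60 CPM in WT cTEC, 4.05, 4.18 and 4.40 CPM in WT mTEClo and 146, 142 and 113 CPM in WT mTEChi. Its mTEChi libraries lay above all others (mTEChi against mTEClo: log2 fold change 4.995 ± 0.11 (SE), adjusted p = 8.13e-12). Serpinb13, an inhibitor of cathepsins L and K described in keratinocytes, was at 0 and 0 CPM in WT cTEC, 0.0684, 0.106 and 0 CPM in WT mTEClo and 5.85, 5.24 and 5.33 CPM in WT mTEChi, with mTEChi clear of both others (log2 fold change 6.52 ± 0.45 (SE), adjusted p = 8.02e-08; at least 329-fold lower in cTEC than in mTEChi, from a floor of 3 counts over both cTEC libraries). Serpinb3c, of the squamous cell carcinoma antigen group, was at 0 and 0 CPM in WT cTEC, 1.15, 1.28 and 0.404 CPM in WT mTEClo and 15.4, 13.95 and 13.4 CPM in WT mTEChi. It had no count in WT cTEC and was at least 861-fold lower there than in mTEChi (adjusted p = 3.87e-06), and it was higher in mTEChi than in mTEClo (log2 fold change 3.91 ± 0.30 (SE), adjusted p = 1.76e-07). Exons of Serpinb3c overlap those of Serpinb3b on the same strand.

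The granzyme B inhibitor Serpinb9, which protects cytotoxic and antigen-presenting cells, rose together with some of its relatives. Serpinb9 was at 101 and 90.4 CPM in WT cTEC, 97.8, 99.3 and 109 CPM in WT mTEClo and 285, 292 and 269 CPM in WT mTEChi. cTEC and mTEClo overlapped and mTEChi lay above both (log2 fold change 1.47 ± 0.06 (SE), adjusted p = 1.08e-09). Serpinb9b was at 0.280 and 0.0545 CPM in WT cTEC, 0.114, 0.138 and 0.207 CPM in WT mTEClo and 16.9, 16.4 and 15.5 CPM in WT mTEChi, low in both other populations and clear of them in mTEChi (log2 fold change 6.72 ± 0.20 (SE), adjusted p = 4.57e-11). Serpinb9d reached only 1.48, 1.09 and 1.66 CPM in WT mTEChi, with 0.0228, 0.0531 and 0 in WT mTEClo and no count in cTEC of either genotype. Serpinb9e ran the other way, at 1.63, 0.892 and 1.25 CPM in WT mTEClo and 0.632, 0.226 and 0.745 in WT mTEChi (log2 fold change -1.26 ± 0.45 (SE), adjusted p = 0.0225), again with no count in cTEC. Reads of Serpinb9d and Serpinb9e can be shared with other members: 30.8% and 28.4% of their transcript 50-mers also occur in another member.

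Abundant clade B members changed by smaller factors. Serpinb1a was at 83.8 and 72.2 CPM in WT cTEC, 402, 376 and 393 CPM in WT mTEClo and 494, 533 and 495 CPM in WT mTEChi. Every cTEC library lay below every medullary library (cTEC against mTEClo: log2 fold change -2.25 ± 0.09 (SE), adjusted p = 8.91e-07), and mTEChi stood 1.30-fold above mTEClo (adjusted p = 7.15e-05). Serpinb2, the plasminogen activator inhibitor of macrophages and keratinocytes, was at 33.6 and 43.2 CPM in WT cTEC, 113, 135 and 124 CPM in WT mTEClo and 244, 304 and 279.5 CPM in WT mTEChi, a rise from cTEC through mTEClo to mTEChi with no overlap (mTEChi against mTEClo: log2 fold change 1.16 ± 0.09 (SE), adjusted p = 1.76e-07). Serpinb7, described in mesangial cells and epidermis, followed the same order at 4.76 and 7.30 CPM in WT cTEC, 21.6, 29.9 and 25.4 CPM in WT mTEClo and 41.01, 48.4 and 40.9 CPM in WT mTEChi (cTEC against mTEClo: log2 fold change -2.01 ± 0.22 (SE), adjusted p = 1.84e-04). Exons of Serpinb2 overlap those of its neighbour Serpinb10 on the same strand.

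Serpinb10 and Serpinb3a had a different order, with mTEClo lowest. Serpinb10, an inhibitor first described in haematopoietic cells, was at 32.1 and 44.3 CPM in WT cTEC, 11.5, 11.0 and 11.3 CPM in WT mTEClo and 51.7, 49.3 and 46.8 CPM in WT mTEChi. cTEC was higher than mTEClo (log2 fold change 1.84 ± 0.15 (SE), adjusted p = 2.74e-05), and mTEChi and cTEC did not differ past the threshold (adjusted p = 0.0504). Serpinb3a was at 6.31 and 8.61 CPM in WT cTEC, 0.763, 0.711 and 1.65 CPM in WT mTEClo and 10.4, 12.2 and 11.5 CPM in WT mTEChi, again with mTEClo clear below both others (cTEC against mTEClo: log2 fold change 2.91 ± 0.40 (SE), adjusted p = 6.34e-04).

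Several serpins of clades A and C were found in mTEChi at low to moderate levels. Serpinc1, antithrombin, the main plasma inhibitor of thrombin, was at 1.57 and 1.92 CPM in WT cTEC, 0.615, 1.13 and 0.643 CPM in WT mTEClo and 33.1, 35.4 and 31.8 CPM in WT mTEChi, with all mTEChi libraries clear of the rest (log2 fold change 5.39 ± 0.18 (SE), adjusted p = 1.50e-10). Its exons overlap those of Zbtb37 on the opposite strand, and the library kit keeps no strand. Serpina12, vaspin, an adipokine that inhibits kallikrein-related peptidase 7, was at 0.257 and 0 CPM in WT cTEC, 0.763, 0.902 and 0.742 CPM in WT mTEClo and 22.6, 25.4 and 19.8 CPM in WT mTEChi (mTEChi against mTEClo: log2 fold change 4.82 ± 0.15 (SE), adjusted p = 7.29e-11). Serpina9, found in germinal centre B cells, was at 0.358 and 0.392 CPM in WT cTEC, 1.45, 2.39 and 1.46 CPM in WT mTEClo and 21.4, 26.3 and 20.97 CPM in WT mTEChi (cTEC against mTEChi: log2 fold change -5.93 ± 0.21 (SE), adjusted p = 1.65e-06). The summed level of 4 B cell markers was 2.08 to 4.05 CPM in WT cTEC, 12.6 to 16.01 in WT mTEClo and 30.1 to 30.9 in WT mTEChi, 4 of 4 being higher in mTEChi than in mTEClo (median log2 fold change 4.57) and 4 of 4 lower in cTEC than in mTEChi. None of the 4 was at 0 in all libraries of a group, and their part in the Serpina9 level was not tested. Serpina12 and Serpina9 followed the order of Serpinb12, from near 0 in cTEC to over 19 CPM in mTEChi.

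Serpina7, the thyroxine carrier of plasma, was at 8.10 and 8.85 CPM in WT cTEC, 7.77, 7.96 and 8.69 CPM in WT mTEClo and 59.2, 73.9 and 53.8 CPM in WT mTEChi. cTEC and mTEClo overlapped, and mTEChi was 7.68-fold above mTEClo (adjusted p = 5.43e-10). Serpina11 was at 0.342, 0.0743 and 0.0436 CPM in WT mTEClo and 4.69, 5.21 and 4.92 in WT mTEChi, with no count in WT cTEC (mTEChi against mTEClo: log2 fold change 5.02 ± 0.48 (SE), adjusted p = 1.37e-06). The summed level of 6 hepatocyte-type genes outside the family (Alb, Apoa1, Apoa2, Ttr, Fgb and Ahsg) was 0.436 to 1.62 CPM in WT cTEC, 4.26 to 9.64 in WT mTEClo and 119 in every WT mTEChi library. Fgb was at 0 in WT cTEC. The summed level of 10 myeloid markers had the same order (42.1 to 70.7, 72.96 to 83.6 and 716 to 758 CPM), and their part in the serpin levels was not tested.

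Counts assigned to the antitrypsin genes stayed low. Serpina1b and Serpina1e reached at most 2.16 and 3.14 CPM in any library, and Serpina1a, Serpina1c, Serpina1d and Serpina1f stayed below 1 CPM in every group. Serpina10, which inhibits activated factor X together with protein Z, was at 1.31 and 0.763 CPM in WT cTEC, 9.89, 10.03 and 9.23 CPM in WT mTEClo and 5.01, 4.59 and 6.71 CPM in WT mTEChi. It was lowest in cTEC (cTEC against mTEClo: log2 fold change -3.16 ± 0.26 (SE), adjusted p = 3.61e-05) and lower in mTEChi than in mTEClo (log2 fold change -0.84 ± 0.15 (SE), adjusted p = 3.33e-04). Serpina6, the cortisol carrier, did not exceed 0.571 CPM in any library.

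The 12 members that fell in WT mTEChi include the collagen chaperone and the complement inhibitor. Serpinh1, which resides in the endoplasmic reticulum and assists collagen folding, was at 387 and 431 CPM in WT cTEC, 407, 441 and 450.3 CPM in WT mTEClo and 76.4, 75.5 and 89.6 CPM in WT mTEChi, so that cTEC and mTEClo overlapped (cTEC against mTEClo: log2 fold change -0.01 ± 0.09 (SE), adjusted p = 0.949) and mTEChi was 5.36-fold below mTEClo (log2 fold change -2.42 ± 0.08 (SE), adjusted p = 9.99e-11). Serping1, the inhibitor of complement C1, was at 67.1 and 67.03 CPM in WT cTEC, 98.6, 104 and 105 CPM in WT mTEClo and 24.8, 24.6 and 25.3 CPM in WT mTEChi, highest in mTEClo and lowest in mTEChi (mTEChi against mTEClo: log2 fold change -2.04 ± 0.06 (SE), adjusted p = 4.06e-11). Serpinb5, maspin, a clade B member without known inhibitory action that is typical of breast and skin epithelium, was at 92.6 and 77.8 CPM in WT cTEC, 51.9, 58.6 and 64.3 CPM in WT mTEClo and 16.1, 20.7 and 16.01 CPM in WT mTEChi. It was the reverse of its neighbour Serpinb12, with the highest libraries in cTEC and the lowest in mTEChi (mTEChi against mTEClo: log2 fold change -1.72 ± 0.11 (SE), adjusted p = 4.31e-08).

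In the antichymotrypsin group, a single gene in humans that has multiplied in mice, 5 members fell in WT mTEChi. Serpina3a, Serpina3b, Serpina3f, Serpina3j, Serpina3k and Serpina3m rose. Of all genes tested, 37.9% were lower and 43% higher. Serpina3n was at 79.4 and 118 CPM in WT cTEC, 90.2, 69.7 and 97.3 CPM in WT mTEClo and 10.5, 9.04 and 11.2 CPM in WT mTEChi (mTEChi against mTEClo: log2 fold change -3.07 ± 0.13 (SE), adjusted p = 7.28e-10). Serpina3i was at 95.4 and 107 CPM in WT cTEC, 116, 118 and 129.7 CPM in WT mTEClo and 44.5, 43.2 and 45.4 CPM in WT mTEChi (log2 fold change -1.45 ± 0.06 (SE), adjusted p = 1.07e-09). The transcribed pseudogene Serpina3h was at 47.4 and 64.3 CPM in WT cTEC, 86.4, 69.7 and 86.9 CPM in WT mTEClo and 26.4, 28.1 and 27.8 CPM in WT mTEChi (log2 fold change -1.56 ± 0.09 (SE), adjusted p = 1.04e-08). In these 3 genes every mTEChi library lay below every cTEC and mTEClo library. Serpina3g fell by a smaller factor, from 209, 202 and 217 CPM in WT mTEClo to 160.3, 154 and 149.9 in WT mTEChi (log2 fold change -0.43 ± 0.06 (SE), adjusted p = 1.66e-05), and the scarce Serpina3c from 1.56, 1.86 and 1.84 to 1.09, 0.395 and 0.931 CPM (log2 fold change -1.14 ± 0.37 (SE), adjusted p = 0.0131). Serpina3j differed from them, at 0.940 and 0.0218 CPM in WT cTEC, 24.7, 25.9 and 20.1 CPM in WT mTEClo and 71.1, 76.2 and 75.1 CPM in WT mTEChi, nearly absent from cTEC and highest in mTEChi (mTEChi against mTEClo: log2 fold change 1.66 ± 0.09 (SE), adjusted p = 8.24e-09).

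Fibroblast and pericyte markers moved with part of this group. Their summed level over 10 genes was 1102 to 1413 CPM in WT cTEC, 944 to 1143 in WT mTEClo and 366 to 384 in WT mTEChi, and none of the 10 was at 0 in any group. Single genes of that list differed in direction, 4 of 10 being higher and 5 lower in WT mTEChi than in WT mTEClo. In WT cTEC against mTEClo, 7 of the 10 were higher and 1 lower, with a median log2 fold change of 1.22. Col1a1, a defining fibroblast gene, was at 23.6 and 13.6 CPM in WT cTEC, 7.24, 7.88 and 6.20 in WT mTEClo and 78.2, 82.6 and 104 in WT mTEChi, highest where Serpinh1 was lowest. The part of these markers in the levels of Serpinh1, Serping1 and Serpinf1 was not tested.

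**Figure D2:**
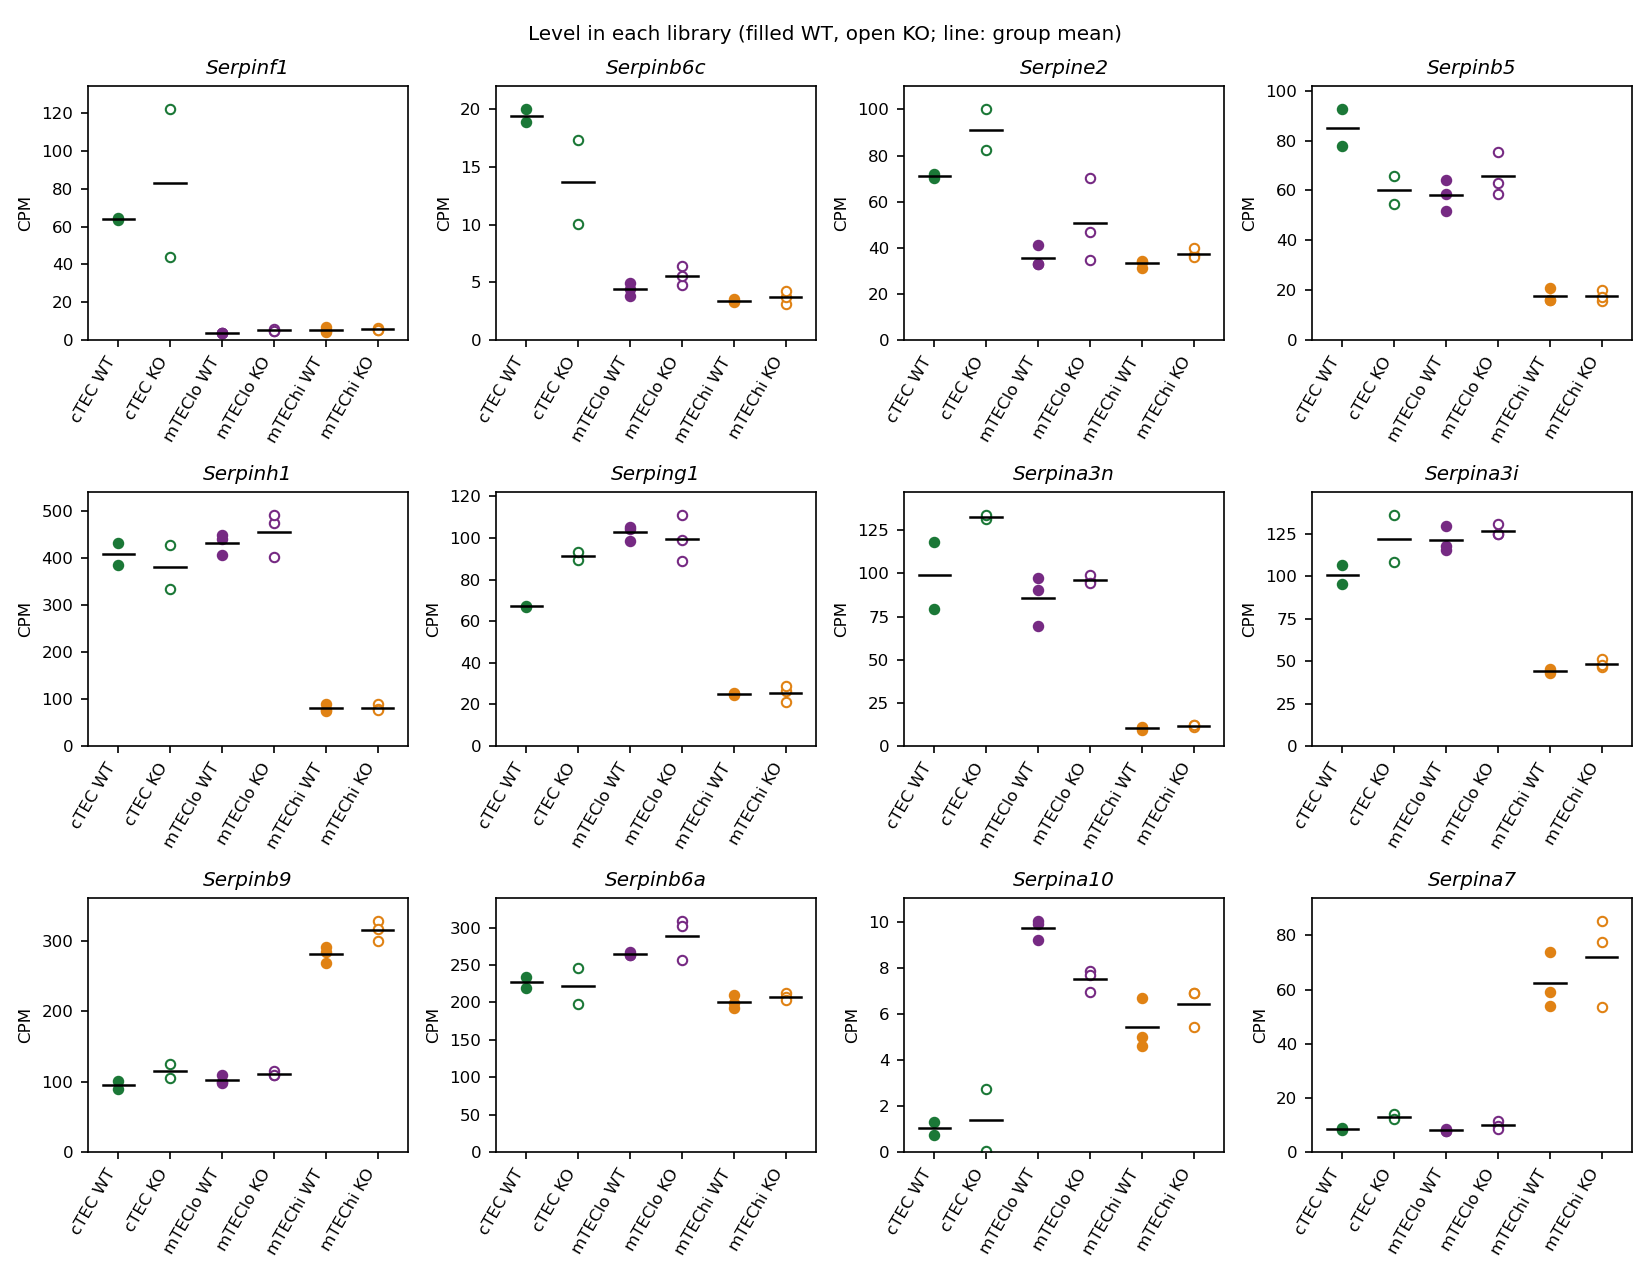
CPM of 12 serpin genes in each library (filled circles WT, open circles KO; horizontal line, group mean; each y axis starts at 0). Serpinf1, Serpinb6c and Serpine2 are highest in cTEC, Serpinh1, Serping1, Serpina3n and Serpina3i are lowest in mTEChi, and Serpinb9 is highest in mTEChi, in both genotypes.

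Cortical cells differed from mTEClo in fewer members. Of 46 tested in WT, 9 were higher in cTEC, beside 20.9% of all genes, and 20 were lower, beside 24.1%. The median log2 fold change was -0.37 for members and -0.017 for all genes. Serpinf1, pigment epithelium-derived factor, a secreted anti-angiogenic protein that inhibits no protease, had the largest rise among members with counts in both groups. It was at 63.3 and 64.4 CPM in WT cTEC, 3.84, 3.70 and 3.76 CPM in WT mTEClo and 6.91, 4.76 and 4.49 CPM in WT mTEChi, with both cTEC libraries far above every medullary library (cTEC against mTEClo: log2 fold change 4.15 ± 0.09 (SE), adjusted p = 3.36e-07). The fibroblast gene decorin, Dcn, was also highest in cTEC, at 895 and 760.01 CPM in WT cTEC, 160.4, 196 and 208 in WT mTEClo and 44.9, 49.6 and 42.7 in WT mTEChi. The 10 fibroblast and pericyte markers were mixed. In WT cTEC, 7 were higher and 1 lower than in mTEClo, and 6 were higher and 3 lower than in mTEChi. The part of such markers in the Serpinf1 level was not tested. Serpinb6c was at 18.9 and 20.02 CPM in WT cTEC, 3.81, 4.96 and 4.45 CPM in WT mTEClo and 3.42, 3.56 and 3.27 CPM in WT mTEChi (log2 fold change 2.21 ± 0.16 (SE), adjusted p = 1.48e-05). Serpine2, protease nexin, a cell-surface inhibitor of thrombin and plasminogen activators, was at 72.1 and 70.5 CPM in WT cTEC, 32.9, 32.8 and 41.4 CPM in WT mTEClo and 34.0, 34.3 and 31.4 CPM in WT mTEChi (log2 fold change 1.07 ± 0.12 (SE), adjusted p = 2.29e-04), with mTEClo and mTEChi not called apart (adjusted p = 0.353).

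Serpina5, the protein C inhibitor, was low throughout at 3.57 and 4.94 CPM in WT cTEC, 2.15, 2.62 and 2.69 CPM in WT mTEClo and 1.92, 1.33 and 2.28 CPM in WT mTEChi, yet higher in cTEC than in mTEClo (log2 fold change 0.85 ± 0.27 (SE), adjusted p = 0.0318). Against mTEChi, 60 members were tested in WT, of which 12 were higher in cTEC, beside 30.8% of all genes, and 43 were lower, beside 43.5%. In order of size the 12 were Serpinf1 (log2 fold change 3.57), Serpina3n (3.28), Serpinb6c (2.51), Serpina3c (2.48), Serpinh1 (2.35), Serpinb5 (2.27), Serping1 (1.43), Serpinb11 (1.36), Serpina5 (1.21), Serpina3i (1.19), Serpine2 (1.10) and Serpina3h (1.03), each past an adjusted p of 0.05 in edgeR. The 43 lower members take in most of clade B, led in level by Serpinb1a, Serpinb2 and Serpinb9. The median log2 fold change was -2.85 for members, also with the 16 tested members that had a group at 0 set to their bound, and -0.244 for all genes.

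The order of the genes along the chromosomes sets these patterns side by side. Of the 62 members, 50 lie in 3 clusters: 23 clade A genes on chromosome 12 (chr12:103616675-104414329, 798 kb, mm10 coordinates of the count table), 12 clade B genes on chromosome 1 (chr1:106861180-107608978, 748 kb) and 15 clade B genes on chromosome 13 (chr13:32842092-34002794, 1161 kb). Between WT mTEChi and mTEClo, 43% of all genes tested were higher and 37.9% lower, shares that stand beside each cluster below. In the chromosome 1 cluster 10 of the 12 genes were higher and 2 were lower, Serpinb5 at its edge and Serpinb11 within it. On chromosome 13, 12 of 15 were higher and 2 lower (Serpinb9e and Serpinb6a). On chromosome 12, 11 of 23 were higher, 6 lower, 4 not called and 2 untested, and direction changed repeatedly among neighbours of the antichymotrypsin group: from Serpina3f (higher) to Serpina3g, Serpina3h and Serpina3i (lower), then Serpina3j, Serpina3k and Serpina3m (higher) and Serpina3n (lower).

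**Figure D3:**
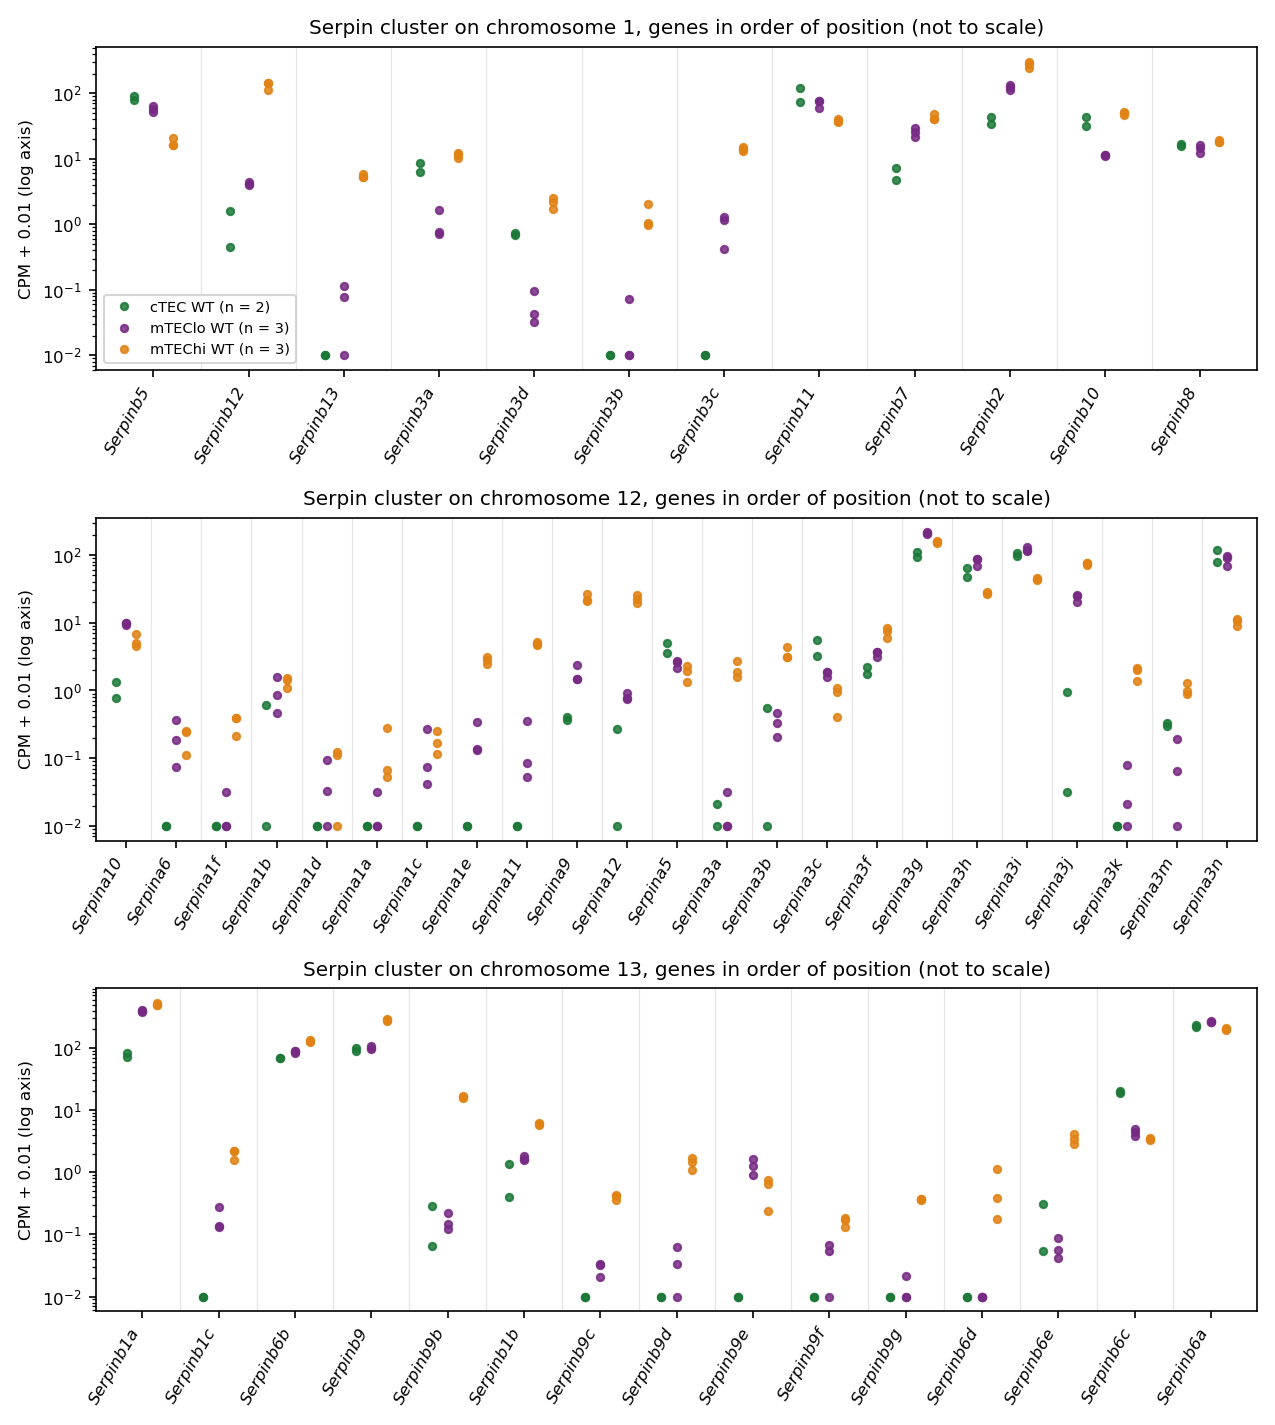
CPM + 0.01 on a log axis in each WT library for the genes of the serpin clusters on chromosomes 1, 12 and 13, in order of position but not to scale (green cTEC, n = 2; purple mTEClo, n = 3; orange mTEChi, n = 3). In the chromosome 1 panel Serpinb5 and Serpinb11 are the genes with mTEChi below both other populations, while the other 10 genes have their highest WT mean in mTEChi.

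Proximal promoters of the members were set beside all promoters. Members that rose and members that fell were not compared with each other. RefSeq promoter windows (GRCm38.p6, 250 bases before to 50 after the annotated start) matched 52 of the 62 members. For members the start nearest that of the count table was used, and for all promoters the first listed per gene. The TATA box letters TATAAA, on either strand, occurred in 14 of these 52 (26.9%), beside 14.2% of 27025 promoters, and the GC box letters GGGCGG in 8 (15.4%), beside 35.9%. CCAAT was found in 36.5% of the members and 37.9% of all promoters, the STAT site TTCNNNGAA in 15.4% and 8.47%, the interferon element core in 5.77% and 3.49%, and the heat shock element core GAANNTTC in 7.69% and 7.95%. All 6 were searched on both strands, and none is part of another. The ratio of observed to expected CpG had a median of 0.173 in the members and 0.389 in all promoters, and it reached 0.6 in Serpinb6a and Serpine2 only (3.85%, beside 36.5% of all promoters). A TATA match lay between 28 and 33 bases before the start in Serpina3a, Serpina3b, Serpinb2, Serpinb3c and Serpinb7.

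The 250 bases before the start are shown 5′ to 3′ on the gene's own strand, with TATAAA and GGGCGG or their reverse complements in capitals, for the adjacent pair Serpinb5 (chr1:106860925-106861174, plus strand) and Serpinb12 (chr1:106934199-106934448, plus strand), which moved in opposite directions. They are also shown for Serpinb3c (chr1:107278372-107278621, minus strand), with a TATA match 31 bases before the start, and for the broadly expressed Serpinb6a (chr13:34002795-34003044, minus strand) and Serpinh1 (chr7:99353240-99353489, minus strand).
Serpinb5: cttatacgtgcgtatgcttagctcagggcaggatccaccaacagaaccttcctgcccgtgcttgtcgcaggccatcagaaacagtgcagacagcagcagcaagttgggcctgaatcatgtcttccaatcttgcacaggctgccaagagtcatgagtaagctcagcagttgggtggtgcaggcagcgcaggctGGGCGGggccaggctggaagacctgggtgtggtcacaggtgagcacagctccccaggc
Serpinb12: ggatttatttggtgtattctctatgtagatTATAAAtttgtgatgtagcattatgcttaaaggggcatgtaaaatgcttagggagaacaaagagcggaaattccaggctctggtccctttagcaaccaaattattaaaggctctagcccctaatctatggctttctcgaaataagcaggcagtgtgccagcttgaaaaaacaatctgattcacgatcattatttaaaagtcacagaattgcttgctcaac
Serpinb3c: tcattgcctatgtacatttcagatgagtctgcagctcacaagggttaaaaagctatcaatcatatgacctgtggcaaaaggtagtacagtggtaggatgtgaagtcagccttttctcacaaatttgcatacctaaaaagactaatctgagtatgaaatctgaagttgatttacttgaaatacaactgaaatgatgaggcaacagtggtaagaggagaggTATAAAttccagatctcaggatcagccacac
Serpinb6a: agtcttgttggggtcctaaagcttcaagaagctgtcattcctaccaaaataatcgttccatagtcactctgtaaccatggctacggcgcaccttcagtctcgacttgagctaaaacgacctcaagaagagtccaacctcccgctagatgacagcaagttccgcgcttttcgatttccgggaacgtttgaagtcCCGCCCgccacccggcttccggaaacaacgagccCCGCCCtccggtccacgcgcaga
Serpinh1: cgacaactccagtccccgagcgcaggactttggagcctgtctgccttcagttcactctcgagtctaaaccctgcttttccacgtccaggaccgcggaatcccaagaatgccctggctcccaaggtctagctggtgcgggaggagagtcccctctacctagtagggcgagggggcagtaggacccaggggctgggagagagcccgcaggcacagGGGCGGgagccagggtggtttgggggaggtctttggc
Serpinb5 has a GC box match 58 bases before the start and no TATA match, and Serpinb12 has a single TATA match, 220 bases before the start. Serpinb6a has GC box matches 57 and 23 bases before the start, and Serpinh1 has 1 at 37 bases. A match describes the letters in the window and does not show a bound site.

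The medullary pattern was measured again in KO mice, whose libraries are separate from the WT ones. Between KO mTEChi and KO mTEClo, 60 members were tested, 39 were higher (beside 42.2% of all genes) and 12 were lower (beside 36.2%). Of the members higher in mTEChi, 36 were shared, which is 36 of 40 in WT and 36 of 39 in KO. Of those lower, 10 were shared, of 12 in each genotype, and 0 members had opposite calls. Over all genes, 7637 higher calls were shared (92.3% of those in WT and 93.6% of those in KO), and 6658 lower calls were shared (91.2% of those in WT and 95.1% of those in KO), with 1 gene called in opposite directions. Serpinb12 was at 5.75, 4.89 and 4.76 CPM in KO mTEClo and 143, 135 and 124 in KO mTEChi (log2 fold change 4.73 ± 0.10 (SE), adjusted p = 5.95e-10). Serpina3n was at 95.8, 98.8 and 94.2 CPM in KO mTEClo against 12.2, 11.2 and 12.1 in KO mTEChi (log2 fold change -3.004 ± 0.07 (SE), adjusted p = 7.95e-10). Serpinh1 was at 402, 475 and 492 CPM in KO mTEClo against 89.7, 78.8 and 76.2 in KO mTEChi (log2 fold change -2.47 ± 0.10 (SE), adjusted p = 1.50e-08). In each of these genes the KO populations did not overlap. The direction was also that of WT for Serpina11, at 0.184, 0.140 and 0.109 CPM in KO mTEClo against 7.14, 5.38 and 4.23 in KO mTEChi (log2 fold change 5.27 ± 0.32 (SE), adjusted p = 2.07e-07). Further named members had the same order in KO: Serpinb13 ranged 0 to 0.0397 CPM in KO mTEClo against 4.51 to 6.23 in KO mTEChi, Serpinb9b 0.119 to 0.310 against 15.9 to 21.3, Serpina12 0.655 to 0.933 against 21.02 to 24.3, Serpinc1 0.451 to 1.06 against 35.3 to 37.1, Serpina3i 125 to 131 against 46.3 to 51.4, Serpina3h 74.8 to 99.1 against 22.1 to 27.7, Serpinb5 58.5 to 75.6 against 15.6 to 20.2 and Serping1 88.7 to 111 against 21.2 to 29.1. In the plot of the genotypes against each other, 56 of the 58 members tested in both have the same sign, beside 95.1% of all genes tested in both.

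**Figure D4:**
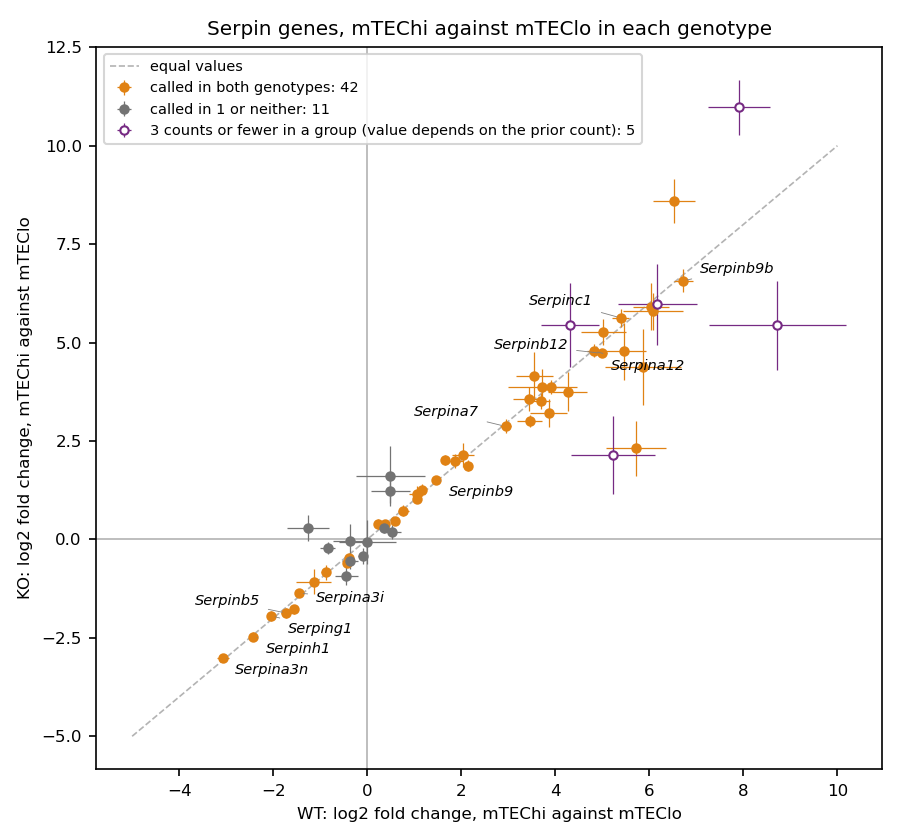
Log2 fold change of mTEChi against mTEClo in WT (x axis) and in KO (y axis) for the 58 serpin genes tested in both, with standard errors. The dashed line marks equal values. Filled orange points (42) passed the threshold in both genotypes, grey points (11) in 1 or neither, and open points (5) have 3 counts or fewer in a group, so that their position depends on the prior count.

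In KO cTEC, fewer differences passed the threshold. Against KO mTEChi, 62 members were tested, 11 were higher (beside 20.7% of all genes) and 29 lower (beside 26%). The 11 higher members were all among the 12 of WT. The median was -2.52, or -2.40 with the 15 members that had a group at 0 set to their bound, and -0.257 for all genes. Serpinf1 was at 44.2 and 122 CPM in KO cTEC against 6.66, 5.29 and 5.31 in KO mTEChi (log2 fold change 3.84 ± 0.46 (SE), adjusted p = 0.00342), Serpinb6c at 10.02 and 17.3 against 3.15, 3.76 and 4.29 (log2 fold change 1.86 ± 0.35 (SE), adjusted p = 0.0111) and Serpine2 at 82.4 and 100.1 against 36.8, 39.8 and 35.9 (log2 fold change 1.27 ± 0.11 (SE), adjusted p = 0.00146). Lower in KO cTEC were Serpina7 (14.1 and 12.05 CPM against 53.4, 85.3 and 77.6; adjusted p = 0.00233) and Serpina3f (1.30 and 1.38 against 6.63, 7.32 and 5.75; adjusted p = 0.00641). Also lower were Serpinb12 (10.9 and 7.67 CPM against 143, 135 and 124; adjusted p = 4.24e-04), Serpinb9 (125 and 105 against 299.9, 328 and 317; adjusted p = 0.00106), Serpinb9b (0.0268 and 0 against 15.9, 16.8 and 21.3; adjusted p = 0.00145), Serpinb3c (0.510 and 1.17 against 13.9, 16.9 and 15.01; adjusted p = 0.00316) and Serpinb13, with no count in KO cTEC. Serpinb6c was no longer past the threshold without any 1 of the KO mTEChi libraries (adjusted p = 0.0574 to 0.072), and Serpina3f without mTEChi KO replicate 2 (adjusted p = 0.0595).

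Against KO mTEClo, 50 members were tested in KO cTEC and 2 were higher (beside 3.32% of all genes) and 2 lower (beside 2.87%), which is near the share of all genes. Higher were Serpinf1 (4.67, 5.93 and 4.68 CPM in KO mTEClo; log2 fold change 4.14 ± 0.46 (SE), adjusted p = 0.00982) and Serpina3n (131 and 134 CPM in KO cTEC against 95.8, 98.8 and 94.2 in KO mTEClo; adjusted p = 0.0289). Lower were Serpinb1a (232 and 145 CPM in KO cTEC against 449.99, 421 and 403 in KO mTEClo; log2 fold change -1.10 ± 0.18 (SE), adjusted p = 0.0276) and Serpina3g (165 and 124 CPM in KO cTEC against 236, 219 and 241; adjusted p = 0.0444). Serpina3n and Serpina3g were singled out after their values were seen. With any 1 KO mTEClo library left out, Serpinf1 and Serpinb1a were no longer past the threshold, and the count of members past it was then 0. Without KO mTEClo replicate 1, 2 or 3, the calls over all genes were 34, 69 and 2 higher and 16, 45 and 1 lower. Leaving out a KO cTEC library leaves 1 in that group, and the counts of those fits are not given.

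The KO libraries were also set against WT within each population, the comparison named in the title of the series. No member passed the threshold in cTEC, mTEClo or mTEChi, beside 0%, 0.00586% and 0.0051% of all genes. In cTEC, 41 members were tested with edgeR and 9 had an unadjusted p under 0.05, beside 12.8% of all genes. DESeq2 called 5 members, beside 563 higher and 304 lower of 16097 genes. Limma-voom with library weights called 1, beside 213 higher and 8 lower of 20126 genes. Leaving out 1 cTEC library leaves 1 in its group, and the counts of those fits are not given. In mTEClo, 45 were tested and 5 had an unadjusted p under 0.05, beside 12.5% of all genes, and in mTEChi 62 were tested and 4 did, beside 4.19%. DESeq2 and voom called 0 in both. The medians were 0.39, 0.11 and 0.096 in the members, and 0.007, 0 and -0.002 over all genes.

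Serpinb1a had the smallest p in cTEC. It was at 83.8 and 72.2 CPM in WT and 232 and 145 in KO, groups that did not overlap (log2 fold change 1.28 ± 0.21 (SE), adjusted p = 0.0855). Serpinb12 was at 0.448 and 1.60 CPM in WT and 10.9 and 7.67 in KO (log2 fold change 3.16 ± 0.83 (SE), adjusted p = 0.214), Serpinb2 at 33.6 and 43.2 against 96.2 and 57.3 (log2 fold change 0.999 ± 0.26 (SE), adjusted p = 0.215) and Serping1 at 67.1 and 67.03 against 89.3 and 93.2 (log2 fold change 0.46 ± 0.15 (SE), adjusted p = 0.289). In all 4 genes both KO libraries lay above both WT libraries, and none passed the threshold in the edgeR fit of the 4 cTEC libraries. The spread between the cTEC libraries of this comparison was 0.652 as a coefficient of biological variation, against 0.131 in mTEClo and 0.113 in mTEChi. The calls depend on the setting. For Serpinb1a the adjusted p was 0.000935 with no filter on low counts, 1.14e-06 with DESeq2 and 0.00529 with voom. It was 4.11e-05 in an edgeR fit of all 16 libraries and 9.23e-09 with the replicate number as a block. Serpinb12 passed with DESeq2 (adjusted p = 0.00434), in the edgeR fit of all 16 libraries (4.14e-05) and with the block (0.0174). Serpinb2 passed with no filter (adjusted p = 0.0282 in edgeR), with DESeq2 (0.0179), in the fit of all 16 libraries (0.00846) and with the block (0.00140). Serping1 passed in the edgeR fit of all 16 libraries (adjusted p = 0.0198). Fits that leave 1 cTEC library in its group are not listed here.

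**Figure D5:**
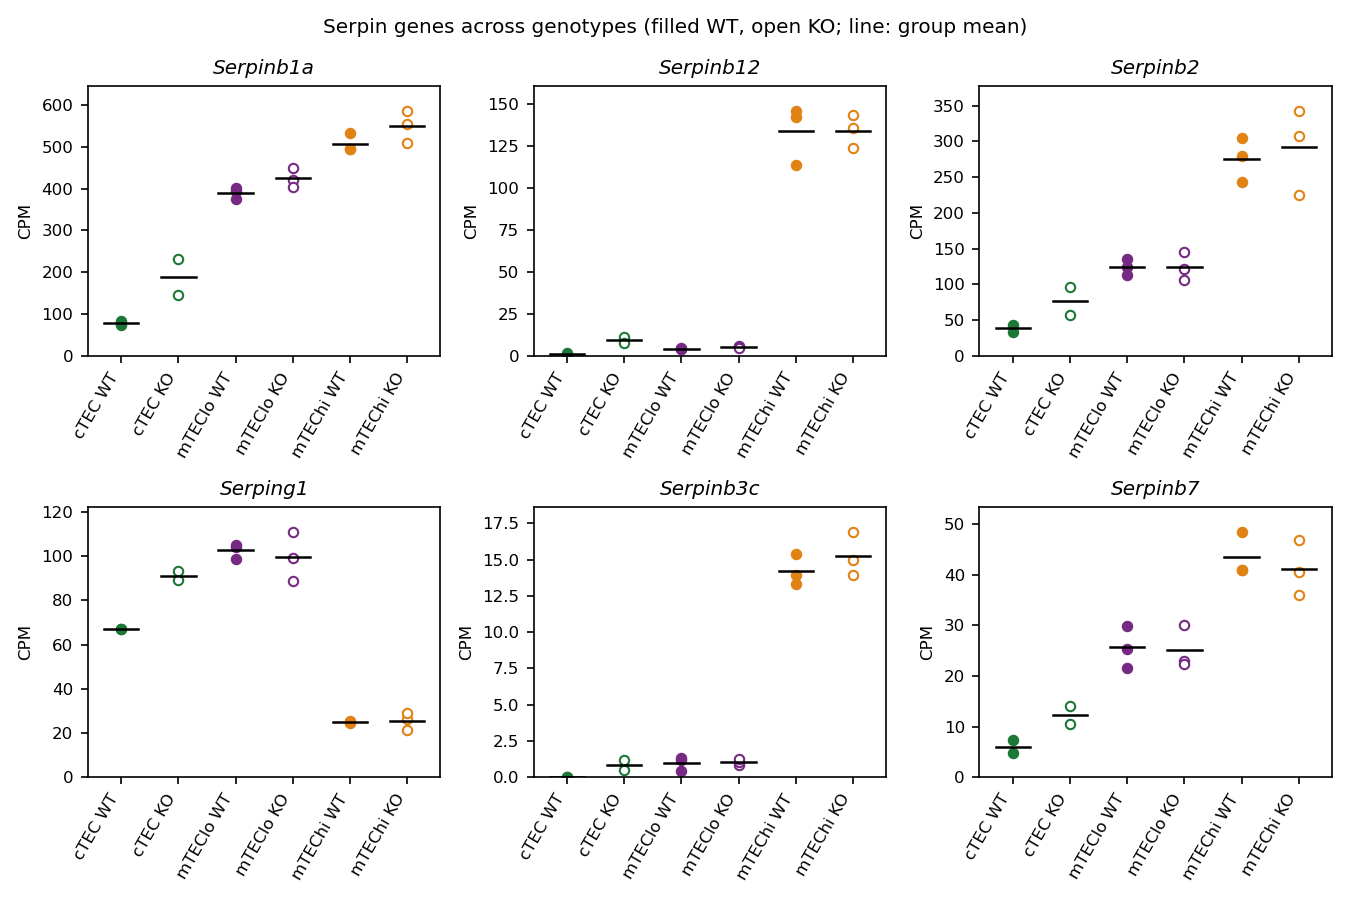
CPM of 6 serpin genes in each library (filled circles WT, open circles KO; horizontal line, group mean; each y axis starts at 0). For each gene both KO cTEC libraries lie above both WT cTEC libraries, while WT and KO libraries overlap in mTEChi for all 6 and in mTEClo for all but Serpinb1a and Serpinb12.

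In mTEClo the 4 smallest p-values belonged to Serpina10 (9.89, 10.03 and 9.23 CPM in WT against 6.97, 7.85 and 7.68 in KO; adjusted p = 0.25), Serpinf1 (3.84, 3.70 and 3.76 against 4.67, 5.93 and 4.68; 0.33), Serpinb10 (11.5, 11.0 and 11.3 against 13.2, 17.6 and 12.6; 0.331) and Serpina5 (2.15, 2.62 and 2.69 against 2.80, 4.20 and 3.60; 0.363). In mTEChi they belonged to Serpinb9d (1.48, 1.09 and 1.66 CPM in WT against 0.522, 1.03 and 0.856 in KO), Serpinb9 (285, 292 and 269 against 299.9, 328 and 317), Serpine2 (34.0, 34.3 and 31.4 against 36.8, 39.8 and 35.9) and Serpinb9e (0.632, 0.226 and 0.745 against 0.715, 1.12 and 1.12), each with an adjusted p of 0.999. For abundant members the fitted differences were small: Serpinb9 differed by 0.15 ± 0.06 (SE) on the log2 scale in mTEChi and Serpinh1 by 0.06 ± 0.09 in mTEClo.

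The KO effect itself was compared between populations. Between mTEChi and mTEClo, 62 members were tested and 0 differed, beside 0.0101% of all genes, while 5 had an unadjusted p under 0.05, and DESeq2 and voom called 0. Between cTEC and mTEClo, 3 of 51 members had a higher effect in cTEC, beside 3.41% of all genes, and 0 a lower one, beside 1.27%. Between cTEC and mTEChi the numbers were 3 of 62, beside 3.56%, and 0, beside 1.79%. The shares are near those of all genes, and both comparisons rest on the same cTEC libraries. The edgeR fit applies 1 spread to all its libraries, with a coefficient of biological variation of 0.379 against mTEClo and 0.348 against mTEChi. In the cTEC libraries alone it was 0.652, so the pooled fits pass cTEC differences more readily.

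The 3 members were Serpinb1a, Serpinb12 and Serpinb3c in each case. Serpinb1a differed by 1.16 ± 0.20 (SE) on the log2 scale from mTEClo (adjusted p = 0.0118) and by 1.15 ± 0.21 from mTEChi (adjusted p = 0.0174). Serpinb12 differed by 2.88 ± 0.67 (adjusted p = 0.0403) and 3.15 ± 0.52 (adjusted p = 0.0115). Serpinb3c had 0 counts in either library of WT cTEC, and 38 and 83 counts in KO cTEC (0.510 and 1.17 CPM). From a floor of 3 counts over the group this is a ratio of at least 50.1, a bound that covers counting error only. Its KO against WT difference within cTEC did not pass the threshold (adjusted p = 0.375 in edgeR). WT and KO overlapped for Serpinb3c in mTEClo (0.404 to 1.28 and 0.867 to 1.28 CPM) and mTEChi (13.4 to 15.4 and 13.9 to 16.9 CPM). With voom, Serpinb12 and Serpinb3c no longer passed (adjusted p = 0.117 and 0.129 against mTEClo), and without any 1 of the 6 mTEClo libraries Serpinb12 had an adjusted p of 0.0751 to 0.108. Without cTEC WT replicate 2, which leaves 1 WT cTEC library, Serpinb1a was not past the threshold against either medullary population. Against mTEChi it no longer passed without mTEChi WT replicate 1, WT replicate 2 or KO replicate 3 (adjusted p = 0.0507, 0.0524 and 0.0572). Serpinb3c no longer passed against mTEClo without mTEClo WT replicate 1, WT replicate 2 or KO replicate 2 (0.0543, 0.0519 and 0.0529). Without mTEClo WT replicate 1, WT replicate 2 or KO replicate 2 the count of members past the threshold was 1 against mTEClo. Over all genes the calls were then 283 to 314 higher and 26 to 36 lower.

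Markers of several other cell types had larger summed levels in both KO cTEC libraries than in either WT cTEC library. All 10 tested medullary markers were above 0 in KO against WT cTEC (median log2 fold change 1.17), as were 7 of 7 tuft markers (median 1.46), while no gene of the 16423 tested passed the threshold in edgeR and 2104 had an unadjusted p under 0.05. Summed levels in WT and KO cTEC were 379 to 461 and 822 to 1221 CPM for tuft markers, 138 to 186 and 251 to 364 for keratinized medullary markers, 0.436 to 1.62 and 11.7 to 30.9 for hepatocyte-type genes, 42.1 to 70.7 and 96.9 to 124 for 10 myeloid markers, 2.08 to 4.05 and 11.8 to 12.02 for 4 B cell markers, and 6582 to 7806 and 4310.3 to 5233 for cortical markers. The genotypes overlapped in the summed levels of fibroblast and pericyte markers (1102 to 1413 CPM in WT and 1127 to 1596 in KO) and of thymocyte markers (95.04 to 127 and 118 to 178 CPM). Endothelial markers ranged 21.2 to 84.5 CPM in WT and 30.3 to 50.7 in KO, with 1 of 6 genes above 0 and a median log2 fold change of -0.86. Serpinb1a, Serpinb12, Serpinb2 and Serpinb3c are all higher in WT medullary cells of at least 1 kind than in WT cTEC. The part of these markers in the serpin values was not tested.

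The KO cTEC libraries also differed from each other in serpins. Replicate 1 held 20.3 CPM of Serpina3j, 4.60 of Serpina9 and 3.11 of Serpinc1, and replicate 2 held 0.884, 0 and 0. Serpinf1 went the other way, at 44.2 CPM in replicate 1 and 122 in replicate 2. Fibroblast and pericyte markers were also lower in replicate 1, with a summed level of 1127 CPM against 1596, Col1a2 at 22.7 and 61.7 CPM and Dcn at 471 and 724 CPM in replicates 1 and 2, and their part in the Serpinf1 values was not tested. Replicate 1 also had the largest share of reads outside genes of all libraries, 30.4%, where the lowest was 13.7%. These genes were singled out after their values were seen.

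Proteases, cofactors and receptors that serpins act on were followed through a list of 76 genes, 73 of them in the table. In WT, 44 of 72 tested were higher in mTEChi than in mTEClo, beside 43% of all genes, and 20 were lower, beside 37.9%. Their median log2 fold change was 1.29, where that of all genes was 0.056. Higher in mTEChi were the endosomal protease cathepsin S, Ctss (53.6, 54.1 and 50.4 CPM in mTEClo against 235, 228 and 221 in mTEChi; log2 fold change 2.12 ± 0.06 (SE), adjusted p = 3.02e-11), the epidermal kallikrein Klk5 (1.38, 1.49 and 1.04 against 25.98, 23.1 and 25.9; log2 fold change 4.27 ± 0.14 (SE), adjusted p = 1.33e-10), the pancreatic protease gene Ctrb1 (1.04, 0.775 and 0.524 against 44.8, 42.01 and 48.3; log2 fold change 5.86 ± 0.17 (SE), adjusted p = 4.56e-11) and the lipoprotein receptor Lrp8 (3.82, 3.31 and 2.59 against 79.6, 74.4 and 72.9; log2 fold change 4.55 ± 0.12 (SE), adjusted p = 2.43e-11). In each of these the populations did not overlap.

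Lower in mTEChi were cathepsin L, Ctsl (1679, 1904 and 1885 CPM in mTEClo against 209, 209 and 218 in mTEChi; log2 fold change -3.10 ± 0.07 (SE), adjusted p = 1.01e-11), the complement protease C1ra (99.5, 105 and 103 against 7.15, 5.87 and 6.69; log2 fold change -3.96 ± 0.08 (SE), adjusted p = 6.59e-12), which Serping1 inhibits, the thrombin receptor F2r (84.4, 83.5 and 82.95 against 16.6, 16.1 and 15.02; log2 fold change -2.39 ± 0.06 (SE), adjusted p = 2.75e-11) and thrombomodulin, Thbd (60.2, 69.2 and 62.1 against 3.65, 3.44 and 3.27; log2 fold change -4.20 ± 0.09 (SE), adjusted p = 7.18e-12). C1ra and its inhibitor Serping1 were thus both lower in mTEChi than in mTEClo, and Ctsl fell where Serpinb13, an inhibitor of cathepsin L, rose.

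In WT cTEC against mTEClo, 12 of 60 tested partner genes were higher, beside 20.9% of all genes, and 26 lower, beside 24.1% (median log2 fold change -0.46, and -0.017 for all genes). Higher were urokinase, Plau (193 and 155 CPM in cTEC and 60.8, 71.3 and 59.3 in mTEClo; log2 fold change 1.52 ± 0.11 (SE), adjusted p = 1.52e-05), the receptors Vldlr (log2 fold change 2.14 ± 0.12 (SE), adjusted p = 4.57e-06) and F2r (log2 fold change 1.13 ± 0.06 (SE), adjusted p = 4.97e-06), and the thyroid hormone receptor Thra (log2 fold change 1.77 ± 0.09 (SE), adjusted p = 2.00e-06). Lower were Klk7, the kallikrein that vaspin inhibits (0.0112 and 0.0327 CPM in cTEC and 33.7, 31.4 and 25.1 in mTEClo; adjusted p = 4.65e-07), Klk13, with no count in WT cTEC, Ctss (21.7 and 22.5 CPM in cTEC) and the membrane protease Tmprss4 (14.9 and 20.2 CPM in cTEC against 82.7, 78.4 and 63.7 in mTEClo). Against mTEChi, 14 of 72 were higher in WT cTEC, beside 30.8% of all genes, and 46 lower, beside 43.5% (median -2.03, and -0.244 for all genes). The smallest p-values were those of Thbd, F2r, Ctsl and C1ra among the higher and of Ctss, Ctrb1, Klk7 and Lrp2 among the lower.

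The remaining members at or above 1 CPM fill in the pattern. Serpina3g (93.7 to 112 CPM in WT cTEC, 202 to 217 in mTEClo and 149.9 to 160.3 in mTEChi), Serpinb6a (219 to 234, 263 to 267 and 193 to 210.4) and Serpinb6b (67.96 to 69.4, 83.1 to 90.4 and 125 to 137) were abundant in all 3 populations, and so was Serpinb11 (74.02 to 121, 60.4 to 75.95 and 36.5 to 40.1). Serpinb8, an inhibitor of furin (15.5 to 17.1, 12.5 to 16.3 and 17.9 to 19.2), and Serpini1, the neuronal tissue-type plasminogen activator inhibitor (8.27 to 11.2, 16.5 to 17.3 and 33.8 to 37.4), were of middle level. Serpinb6a carries exons of Nqo2 and Ripk1 on its opposite strand, whose reads cannot be told apart from its own without strand.

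Low members with their highest WT mean in mTEChi were Serpina1b, Serpina1e, Serpina3a, Serpina3b, Serpina3k, Serpina3m, Serpinb1b, Serpinb1c, Serpinb3b, Serpinb3d, Serpinb6e, Serpine3 and Serpind1, heparin cofactor II. In WT mTEChi their libraries ranged from 0.868 CPM (Serpina3m) to 6.26 CPM (Serpinb1b). Serpina3c was highest in WT cTEC, at 3.26 and 5.64 CPM. Below 1 CPM in every group were Serpina1a, Serpina1c, Serpina1d, Serpina1f, Serpina6, Serpinb6d, Serpinb9c, Serpinb9f, Serpinb9g, Serpinf2 and Serpini2. Near-identical copies limit what some of these values mean: 25 of the 62 members share at least 10% of their transcript 50-mers with another gene, and for 5 (Serpina1a, Serpina1c, Serpina1d, Serpinb9f and Serpinb9g) it is at least 50%.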

How the data were processed

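RNA was measured by sequencing in 16 libraries of sorted thymic epithelial cells. The deposited counts are whole reads per gene symbol; HTSeq 0.5.4p1 and CASAVA 1.8.2 are named, with build mm10, per the submitters' processing notes, and the aligner, its settings and the annotation release are not given in the sources used here. The deposited RPKM, made by the authors, were used only to compare levels between genes. Rows that name no gene (13.7 to 30.4% of reads in no gene, 0.541 to 0.887% ambiguous) were left out. The labels' protocols name a TruSeq RNA kit of a kind that does not mark strand.

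Groups came from the sample labels, and all columns matched a sample. In R 4.3.3, edgeR 4.0.16 fitted each comparison on its own groups (filterByExpr, TMM scaling, quasi-likelihood test), 12 comparisons in all, with Benjamini-Hochberg adjustment across every gene in the fit, called at 0.05; a KO effect compared between populations is an interaction term. CPM use the TMM-scaled totals. A group at 0 gives a bound from 3 counts over the group, which covers counting error only. Alternatives were RLE scaling, no filter, DESeq2 1.42.0, limma-voom 3.58.1, a fit of all 16 libraries, a replicate block and each library left out. The fits were tested on simulated data.

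Members named in full were called ones with non-overlapping groups, a log2 change of 1 or more and 5 CPM or more, of these the 6 with the largest fold and the 4 with the smallest p in each direction; in KO against WT, the 4 with the smallest p. The members and lists were chosen with earlier results of these data known. The values of 1 member are not reported here. Sequences were taken from RefSeq (GRCm38.p6).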

Additional observations from a re-analysis of the deposited data

Results flagged for a closer look

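In edgeR's test of the difference between populations in the KO against WT change, 3 serpin genes passed the threshold, each in cTEC against both medullary populations. These are 3 of 51 members tested against mTEClo, beside 3.41% of all genes, and 3 of 62 against mTEChi, beside 3.56%, shares near those of all genes. The test pools cTEC with less variable medullary libraries, which makes calls on cTEC effects more likely. In edgeR's fit of cTEC alone no member passed (adjusted p = 0.0855 for Serpinb1a, 0.214 for Serpinb12 and 0.375 for Serpinb3c). With voom only Serpinb1a passed, and Serpinb12 and Serpinb3c did not (adjusted p = 0.117 and 0.129 against mTEClo, 0.0803 and 0.140 against mTEChi). On the log2 scale, Serpinb1a differed by 1.16 from mTEClo and 1.15 from mTEChi, and Serpinb12 by 2.88 and 3.15. For Serpinb3c the fitted differences were 9.20 and 9.30; they depend on the prior count, since WT cTEC had no count, and are no measure of size. In all 3 genes both KO cTEC libraries lay above both WT cTEC libraries.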

How the results depend on the processing

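Counts of serpin members past the threshold moved by more than 1.5 times only in comparisons that use KO cTEC. For KO against WT cTEC (0) they were 2 with no filter, 16 in the fit of all 16 libraries, 1 with voom and 5 with DESeq2, and 2 to 10 with 1 library left out. For KO cTEC against KO mTEClo (4) they were 26 in the fit of all libraries, 2 with voom, 13 with DESeq2 and 0 to 35 with 1 library left out; for KO cTEC against KO mTEChi (40), 30 to 59 with 1 left out. For the KO effect in cTEC against mTEClo and mTEChi (3 each) they were 8 and 8 in the fit of all libraries, 1 and 1 with voom, and 7 and 11 with DESeq2. They were 1 without mTEClo WT replicate 1 and 2 without mTEChi WT replicate 1. Leaving out 1 library gave 49 to 52 and 49 to 55 for mTEChi against mTEClo in WT and KO, and 0 for KO against WT in mTEClo and mTEChi. For WT cTEC the counts were 22 against mTEClo without mTEClo WT replicate 1 and 50 against mTEChi without mTEChi WT replicate 2. Counts from fits that leave 1 cTEC library in its group are not given. The cause was not tested.

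Replicate numbers did not pair the samples (correlations of deviations -0.03 to 0.058). With a replicate block the counts were 4 for KO against WT cTEC, 17 for KO cTEC against KO mTEChi, and 1 each for the KO effects in cTEC; WT cTEC gave 21 against mTEClo and 39 against mTEChi.

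No direction reversed in any alternative run for the named members: of the alternatives for population differences 735 kept their call and 15 lost it, all 15 in KO cTEC, and of those for genotype 188 kept it, 22 gained and 22 lost it. These tallies of named members include fits that leave 1 cTEC library in its group. Over all genes, KO against WT cTEC gave 0 calls in edgeR and, higher and lower, 563 and 304 with DESeq2, 290 and 93 with no filter, 436 and 282 with the block, 2650 and 2050 in the fit of all libraries and 213 and 8 with voom. In mTEClo 1 call became 85 and 225 with DESeq2, 3 and 18 with no filter, 0 in the fit of all libraries and 21 and 40 with voom; in mTEChi 1 became 2 and 4 with DESeq2, 0 and 1 and 2 with voom. KO cTEC against KO mTEClo went from 577 and 500 to 1823 and 1605 with DESeq2 and 2848 and 3145 in the fit of all libraries, and KO cTEC against KO mTEChi from 4021 and 5055 to 1446 and 1088 with the block. The median of all genes for WT mTEChi against mTEClo was 0.056, and 0.26 with DESeq2; for WT cTEC against mTEChi it was -0.244 and -0.496.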
